A study of Mus musculus with 2 samples.

Results

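The cells described here are 1261 endothelial cells from the fat of obese mice, compared between 2 pairs of sample hashtags. They came from the stromal vascular fraction, the cells other than adipocytes that digestion frees from fat, of epididymal fat pads. The mice were males on a C57BL/6J background, wild-type or Mincle-deficient, after 15 weeks on a high-fat diet. Suspensions stained with hashtag antibodies were pooled and sequenced with the TAS-Seq method on BD Rhapsody beads as 1 pool, deposited as 2 libraries, transcripts and tags. All 4 hashtags used (A0309, A0310, A0311 and A0312) therefore share sex, strain background, diet and run. No label says which genotype a hashtag holds or how many mice stand behind it.

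A cell was taken as endothelial when at least 3 of the 4 genes Cdh5, Kdr, Cldn5 and Egfl7 were counted in it, with limits on macrophage genes (Cd68, C1qa and C1qb together under 20 counts per 10000) and fibroblast genes (Dcn and Lum together under 10). Of 15741 cells in the table, 15374 carried a single hashtag, and 1261 of these (8.20%) met the gate. A further 10 cells that met it were named doublets by the authors and were left out. All 4 gate genes were counted in 1102 of the cells and 3 in 159, and 99 cells with 2 of them lay just outside. Another 288 cells had at least 3 of the genes but too many macrophage counts.

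The pairs were chosen by a measured value, Clec4e in myeloid cells. Clec4e encodes Mincle, a C-type lectin receptor of macrophages that binds glycolipids and material from dying cells. In macrophage-gated cells Clec4e stood at 10.7 CPM (counts per 1000000 counts of the gated cells) in A0309 and 16.0 in A0310, against 0.792 in A0311 and 0.707 in A0312. That difference made the pairs and is not a finding. In endothelial-gated cells Clec4e gave 19 counts in A0309, 4 in A0310, none in A0311 and 2 in A0312, and in no hashtag did more than 2 cells hold a count. The level was 3.55, 0.783 and 0.296 CPM where it was counted, and the absence of counts in A0311 allows up to 0.526 CPM (95% exact Poisson bound, counting error only). Since the 4 sums are not replicates of a labelled group, no test was run, and every difference below is a description of these hashtags.

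Endothelial cells line the capillaries that supply adipocytes. In fat they take up fatty acids released from lipoproteins, present adhesion molecules to passing leukocytes, and grow new vessels as the tissue expands. They also respond to interferons and to cytokines from the macrophages around them, which gather in obese fat.

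The gate held 245 cells of A0310, the fewest, and 360 of A0312, the most, with 5109299 to 7017950 counts per hashtag and medians of 13383.5 to 15928 counts per cell. Endothelial cells made up 9.37% of the A0309 cells (95% Clopper-Pearson interval 8.39 to 10.4) and 6.93% of the A0310 cells (6.11 to 7.81). The shares in A0311 and A0312, 8.94% and 7.73%, fell between these values, so the pairs overlapped.

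The cells carried the genes of the lineage in every hashtag. Cdh5, the cadherin of endothelial junctions, stood at 1433, 1249, 1391 and 1481 CPM in A0309, A0310, A0311 and A0312, the order kept for all values below, against 2.19 to 2.83 CPM in macrophage-gated cells. Kdr, the main receptor for vascular endothelial growth factor (VEGF), stood at 891, 877, 886 and 973 CPM. Pecam1, which the gate did not use, stood at 1472, 1269, 1491 and 1443 CPM. Counts of other cell types were also present. The 15 macrophage markers summed to 1503, 1995, 1399 and 1551 CPM, against 24442 to 26021 in macrophage-gated cells, with none of the 15 at 0 in all hashtags. Ptprc, the leukocyte gene for CD45, was counted in 16.7 to 23.3% of the gated cells. The 9 mural markers, of pericytes and smooth muscle, summed to 2641, 2677, 2567 and 1749 CPM, and the 9 fibroblast markers to 510, 441, 560 and 372 CPM. The gate itself caps Dcn, which was at 0.

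Few genes met the rule for a difference between the pairs. Of 30084 genes, 9874 reached a mean of 10 CPM and were counted in at least 5% of the cells. The median absolute log2 difference between single sums was 0.19 within A0309 and A0310 and 0.16 within A0311 and A0312. A gene was called when the nearest sums of the 2 pairs lay at least 1.5 times apart on the log2(CPM + 1) scale and this gap exceeded the difference within each pair. By this rule 36 genes (0.365%) were higher and 12 (0.122%) lower in A0309 and A0310. Scaling by TMM factors in place of totals gave 31 higher and 18 lower. Which genes were called depended on the cells summed: 4 of the 36 and 10 of the 12 stayed called without the 5% deepest cells, and 10 and 5 with cells thinned to 10000 counts. Both A0309 and A0310 lay above the other 2 hashtags for 1841 genes (18.6%) and below them for 1692 (17.1%), with no minimum gap. Of the called genes, 35 of the 36 higher and 11 of the 12 lower had a mean under 50 CPM.

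**Figure D1:**
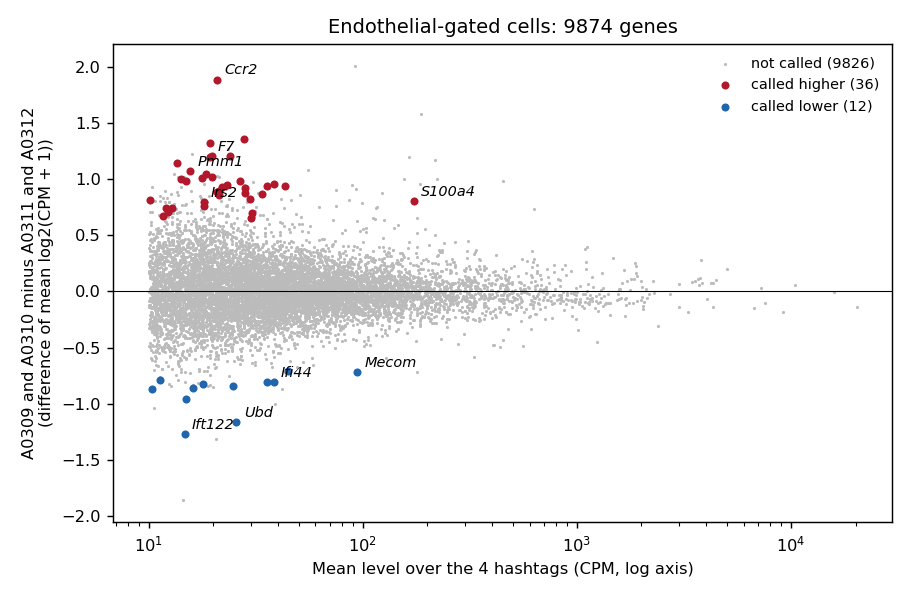
Each point is 1 of the 9874 genes, with its mean level over the 4 hashtags in CPM (log axis) and the difference of mean log2(CPM + 1), A0309 and A0310 minus A0311 and A0312. The 36 genes called higher (red) and 12 called lower (blue) lie almost all at the low end of the level axis, with S100a4 and Mecom at the highest means on their sides, and uncalled genes spread as widely there.

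The gene called lower with the most counts was Mecom, a zinc finger transcription factor known in arterial endothelium (chromosome 3, 29951296 to 30548008). Its level was 71.2, 70.1, 122 and 112 CPM, from 381, 358, 854 and 761 counts, a log2 difference of -0.72. The exact Poisson interval of A0309 (64.2 to 78.7) lay apart from that of A0312 (105 to 121), with counting error only. The call held under 14 of 19 alternatives. Among others, it was lost with cells thinned to 10000 counts and without cells holding Ptprc, Laptm5 or Fcer1g (log2 difference -0.49). Mecom was at 0.549 to 0.694 CPM in macrophage-gated cells, and no single cell held more than 5.3% of its counts in any hashtag. It was the only called gene of the 14 arterial genes considered. The list's median log2 difference was -0.12, and Sox17, a transcription factor of arterial fate, overlapped at 168, 154, 186 and 149 CPM.

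Among the other genes called lower, Ubd and Ifi44 are both known to be induced by interferons. Ubd encodes a ubiquitin-like modifier (chromosome 17, 37193892 to 37196095). It stood at 13.1, 17.6, 28.6 and 43.3 CPM (log2 difference -1.16), with A0312 the highest. Ifi44 (chromosome 3, 151730922 to 151749960) stood at 30.5, 24.9, 47.6 and 50.2 CPM (log2 difference -0.81), with the 2 hashtags of each pair close together. Both were under 1 CPM in macrophage-gated cells of every hashtag.

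Ift122, a subunit of the transport machinery of the primary cilium, had the widest gap of the genes called lower. It stood at 9.71, 6.85, 22.1 and 20.2 CPM, from 52, 35, 155 and 137 counts (log2 difference -1.27). The gene lies on the chromosome of Clec4e, at chromosome 6, 115853470 to 115926699, 7.36 Mb away. Ccng1, a cyclin-like target of p53, stood at 25.97, 25.1, 48.3 and 42.7 CPM, and Adamts7, a secreted metalloproteinase, at 12.7, 12.5, 23.2 and 22.9 CPM. Gm49359 stood at 10.5, 11.9, 21.1 and 21.0 CPM. Klhdc4, Osbpl6, Abhd14a and Ptpdc1 were also lower, with log2 differences from -0.96 to -0.79.

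Fam177a2 was the only gene called in the same direction in endothelial and in macrophage-gated cells. It stood at 35.7, 32.1, 56.0 and 55.6 CPM in endothelial cells and at 19.0, 18.0, 35.2 and 36.2 CPM in macrophage-gated cells. Among 8382 genes at 10 CPM or more in macrophage-gated cells, 4 were called higher (0.0477%) and 6 lower (0.0716%). The paralog Fam177a is nearly identical, and its values ran alongside, at 35.7, 29.4, 54.0 and 53.5 CPM in endothelial cells, so the counts of the 2 copies cannot be told apart.

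On a list of 26 interferon-induced genes that includes Ifi44 and not Ubd, most lay below in A0309 and A0310, but the nearest sums of the pairs were at least 1.5 times apart in Ifi44 only. Of the 26, 19 lay below in both hashtags, where 17.1% of all genes did, 1 lay above and 6 overlapped. The median log2 difference of the list was -0.29, against 0.00 for all genes, and only Ifi44 was called. Ifit1, which binds foreign RNA caps, stood at 14.9, 18.6, 23.4 and 27.3 CPM (log2 difference -0.57). Gbp7, a guanylate-binding protein of host defence, stood at 122, 130, 164 and 157 CPM (-0.35), and the immunity GTPase Irgm1 at 32.7, 28.0, 39.8 and 39.5 CPM (-0.38). The pairs did not overlap in these 3 genes. Irf7, a factor that carries the interferon signal, stood at 29.9, 37.0, 39.6 and 45.1 CPM. Stat2 was the exception, at 71.0, 68.7, 55.6 and 59.7 CPM. Ifitm3, which blocks virus entry, overlapped at 1667, 1488, 1681 and 1428 CPM.

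**Figure D2:**
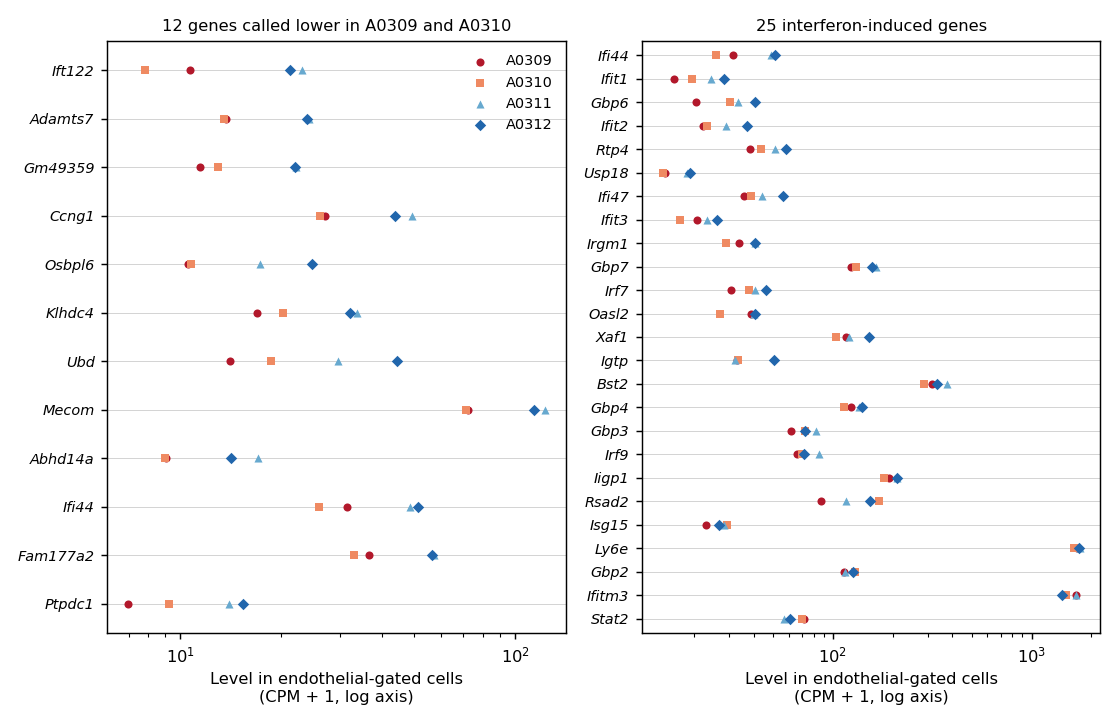
Each row is a gene, and each point is its level in the endothelial-gated cells of 1 hashtag (CPM + 1, log axis). Left, the 12 genes called lower, where the red points (A0309, A0310) lie clear of the blue (A0311, A0312); right, 25 of the 26 interferon-induced genes, where most keep that order with narrower gaps.

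The promoters of interferon-induced genes are known to carry an interferon-stimulated response element (ISRE). A search of the 250 bases upstream of each RefSeq gene start (GRCm38.p6) for GAAANNGAAA on both strands, overlaps included, found it for 936 of 27025 genes (3.46%). Of the 26 list genes 19 were in that table, and 11 of them (57.9%) held the motif. Among the 12 found there that lay below in both A0309 and A0310, 5 (41.7%) held it, a smaller share than of the list. The upstream sequences of the 3 of these 5 with the widest gaps are shown to let the element be read beside the levels above, in the direction of the gene with matches in capitals. They are Ifit1 (chr19:34640639-34640888, plus strand), Gbp7 (chr3:142530086-142530335, plus strand) and Irgm1 (chr11:48871421-48871670, minus strand). A match is a description of the letters and does not show a bound site.
Ifit1: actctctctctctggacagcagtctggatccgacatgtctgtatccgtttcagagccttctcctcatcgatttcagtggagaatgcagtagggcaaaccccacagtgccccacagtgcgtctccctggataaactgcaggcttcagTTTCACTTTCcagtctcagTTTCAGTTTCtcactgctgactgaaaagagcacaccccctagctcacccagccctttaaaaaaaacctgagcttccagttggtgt
Gbp7: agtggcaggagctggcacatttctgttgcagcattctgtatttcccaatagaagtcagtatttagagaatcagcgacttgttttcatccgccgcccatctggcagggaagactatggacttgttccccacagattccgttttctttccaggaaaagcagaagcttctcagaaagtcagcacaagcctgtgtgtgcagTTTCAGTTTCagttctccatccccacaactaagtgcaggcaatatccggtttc
Irgm1: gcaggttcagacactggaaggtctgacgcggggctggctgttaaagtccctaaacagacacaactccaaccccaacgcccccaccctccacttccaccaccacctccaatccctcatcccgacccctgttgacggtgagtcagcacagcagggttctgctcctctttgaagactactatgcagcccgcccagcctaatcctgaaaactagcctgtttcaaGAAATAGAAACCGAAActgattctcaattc

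The interferon-induced list ran the same way in the other cells of the same hashtags. In macrophage-gated cells 12 of the 15 members at 10 CPM or more lay below in both A0309 and A0310, where 24.0% of all genes did and 13.4% lay above. Their median log2 difference was -0.31. In fibroblast-gated cells it was 9 of 19, where 14.8% of all genes lay below and 15.1% above, with a median of -0.20. None of these members was at least 1.5 times apart in either gate. Gates of 1 hashtag share mice and library, so the 3 sets of values are not independent.

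**Figure D3:**
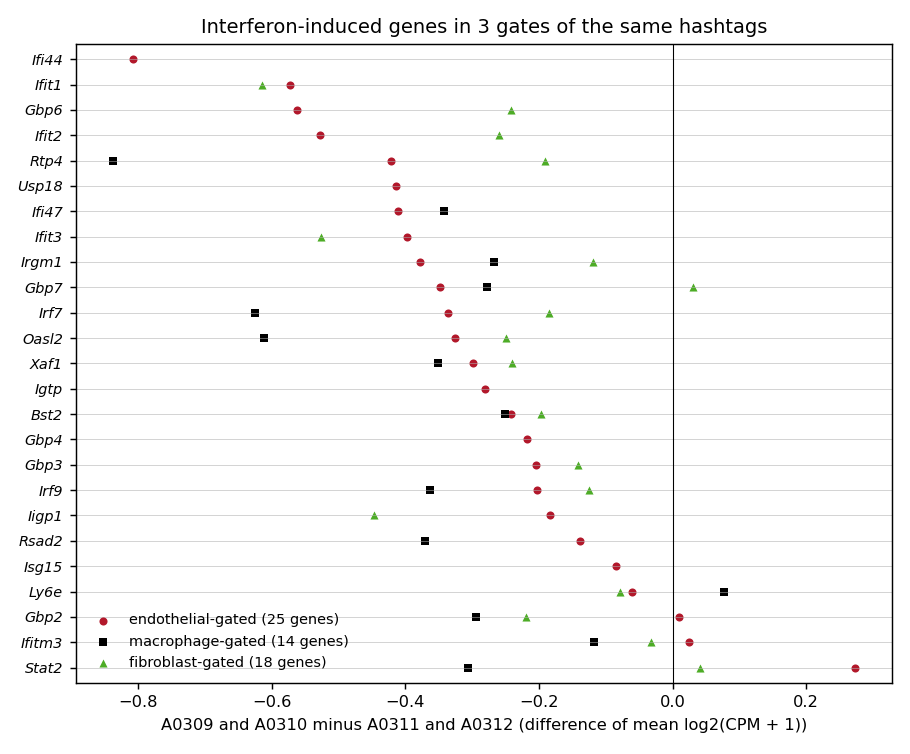
Each row is an interferon-induced gene, and points give the difference of mean log2(CPM + 1), A0309 and A0310 minus A0311 and A0312, in endothelial-gated (25 genes), macrophage-gated (14) and fibroblast-gated cells (18), the latter 2 shown for genes at 10 CPM or more. Most points of all 3 gates lie left of 0.

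The interferon pattern depended on which cells were summed. Without the cells that held a count of the leukocyte genes Ptprc, Laptm5 or Fcer1g, 7 of the 26 genes lay below and 2 above, with a median of -0.14 over 521 cells. With every cell thinned to 10000 counts, 11 lay below in 970 cells, and with each cell given equal weight 10 did. Ifi44 stayed called under 10 of 19 alternatives, among them the one without leukocyte-gene cells but not thinning.

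The genes called higher are grouped here by what they are known to do, after their values were seen. On the lists of other cell types 2 of the 36 appear, Ccr2 of monocytes and Cspg4 of mural cells, and none of the 13 macrophage markers considered was called. Of the 36 genes, 24 stood higher in macrophage-gated than in endothelial-gated cells in every hashtag, and 18 were over 5 times higher on average. Over all 9874 genes these numbers were 2224 and 261. Ccr2, the monocyte receptor for the chemokine Ccl2, had the widest gap, at 26.3, 40.3, 6.70 and 9.75 CPM (log2 difference 1.89). In A0310, 1 cell held 44.7% of its counts. The summed monocyte and neutrophil list, with Ccr2 in it, overlapped at 69.5, 101, 60.1 and 81.1 CPM. S100a4, a calcium-binding protein of motile and myeloid cells, had the most counts, 1137, 1169, 907 and 832, at 212, 229, 129 and 123 CPM (log2 difference 0.80). Its neighbour Gm42674, also called, overlaps it on chromosome 3, and since the counting is not stated to use strand the 2 may share reads.

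Several of these genes act in leukocyte signalling and lipid mediators. Alox5ap, which leukotriene synthesis needs, stood at 51.6, 63.2, 29.4 and 29.3 CPM against 266 to 370 CPM in macrophage-gated cells. Dock2, a Rac activator of leukocytes, stood at 30.1, 31.3, 16.0 and 14.9 CPM, and Irf5, a transcription factor of inflammatory macrophages, at 26.7, 28.8, 14.5 and 15.1 CPM. Selplg, the ligand by which leukocytes roll on selectins, stood at 28.2, 44.0, 17.5 and 17.1 CPM. F7, coagulation factor VII, stood at 26.9, 27.8, 12.4 and 10.3 CPM and the complement regulator properdin, Cfp, at 35.7, 32.1, 12.7 and 15.7 CPM. None of the 6 was called in macrophage-gated cells, where 0.0477% of all genes were called higher. Alox5ap (340, 370, 268 and 266 CPM) and Cfp (196, 186, 178 and 162 CPM) lay above there, as 13.4% of all genes did. The others overlapped there. In A0310, a single cell held 45.1% of the F7 counts and a single cell 43.9% of the Cfp counts. Cd53, Clec4b1, Daglb, Kcnn4, Lpxn, Metrnl, Mfsd12, Mmp19, Pid1, Qpct and Rnf128 were further called genes with higher macrophage levels.

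Counts of these genes lay to differing degrees in the cells that also held leukocyte genes. Ptprc, Laptm5 or Fcer1g was counted in 60.4, 60.4, 56.9 and 57.8% of the gated cells, which held 68.4, 68.6, 66.9 and 66.5% of all their counts. Those cells held 94.7, 96.5, 87.8 and 93.2% of the S100a4 counts. They held 87.6, 91.25, 76.8 and 69.3% of the Dock2 counts, the last near the share of all counts. Without them, Irs2 and Tor1a stayed called among the 36, S100a4 turned to a log2 difference of -0.20 and Clec4b1 to -1.02, and Ccr2 stood at 0.99 uncalled. Other calls were lost with wide differences between the pairs' means, such as Bmpr1a at 2.82, Cspg4 at 2.10, Ccna2 at 1.27 and Pmm1 at 1.12. The cells left were fewer (521) and shallower, with 84 and 72 genes called in place of 36 and 12. The summed macrophage markers themselves did not separate the pairs, with A0312 above A0309, and their part in these calls was not tested. Single macrophage genes ran differently. Cd68 lay above in both A0309 and A0310 at 93.4, 126, 76.1 and 49.4 CPM, uncalled, while C1qa overlapped at 27.1, 34.1, 33.8 and 45.2 CPM.

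**Figure D4:**
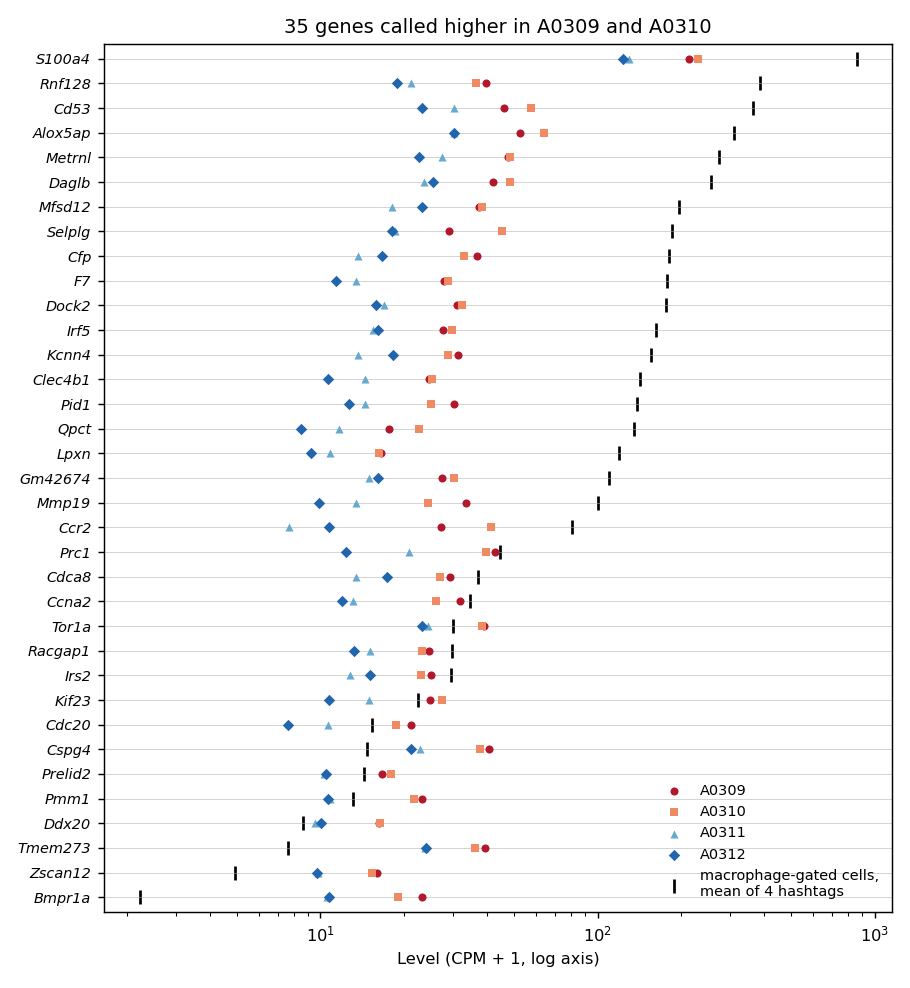
Rows are 35 of the 36 genes called higher, ordered by their mean level in macrophage-gated cells (black ticks), and points give the level in endothelial-gated cells of each hashtag (CPM + 1, log axis). For the upper 20 rows the tick lies to the right of all 4 points, while Bmpr1a at the bottom is far lower in macrophage-gated cells.

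Of the called genes 6 work in mitosis, of which Ccna2 alone is on the cell cycle list. Ccna2, cyclin A2, stood at 30.8, 25.1, 12.1 and 10.9 CPM (log2 difference 1.20), from 165, 128, 85 and 74 counts. Prc1, which bundles microtubules of the dividing spindle, stood at 41.7, 38.6, 19.8 and 11.4 CPM. Cdc20, an activator of the anaphase-promoting complex, stood at 20.2, 17.8, 9.69 and 6.65 CPM, and a single cell held 53.7% of its A0309 counts. Kif23, Cdca8 and Racgap1, also of the late mitotic spindle, were called too, with log2 differences of 1.04, 0.88 and 0.76. None of the 6 stayed called without the 5% deepest cells, without leukocyte-gene cells or without cells counting Mki67, Top2a or Ccna2. The last setting removes every Ccna2 count, so the loss of that call was fixed in advance. Leukocyte-gene cells held 81.8, 90.6, 92.9 and 79.7% of the Ccna2 counts. Of the 13 cell cycle genes considered from a list of 16, 8 lay above in both, none below and 5 overlapped, where 18.6% of all genes lay above and 17.1% below, with a median log2 difference of 0.30. Without the 5% deepest cells 4 lay above. Mki67, the proliferation marker, stood at 90.4, 66.0, 56.0 and 36.8 CPM, and Top2a at 64.1, 56.4, 40.0 and 34.0 CPM. Neither was called. Cells with a count of Mki67, Top2a or Ccna2 were 17.9, 20.4, 18.7 and 21.4% of the gated cells, so their shares overlapped. In macrophage-gated cells 3 of 15 list members lay above and 3 below, where 13.4% and 24.0% of all genes did.

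Genes of mitosis are known for CCAAT boxes in their promoters, the letters bound by the factor NF-Y. All 5 of the called mitotic genes in the promoter table (Ccna2 is not in it) held CCAAT on either strand in the 250 upstream bases. Of all 27025 genes 10133 held it (37.5%), as did 11 of 28 called higher and 6 of 8 called lower. The 2 of the 5 mitotic genes with the widest gaps are shown for their levels above, with CCAAT in capitals. They are Prc1 (chr7:80294201-80294450, plus strand) and Cdc20 (chr4:118437344-118437593, minus strand).
Prc1: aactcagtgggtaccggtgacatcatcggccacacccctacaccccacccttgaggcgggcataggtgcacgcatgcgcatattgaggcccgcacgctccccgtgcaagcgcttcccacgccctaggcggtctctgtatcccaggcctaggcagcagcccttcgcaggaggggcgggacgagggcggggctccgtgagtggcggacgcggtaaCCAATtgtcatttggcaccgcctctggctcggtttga
Cdc20: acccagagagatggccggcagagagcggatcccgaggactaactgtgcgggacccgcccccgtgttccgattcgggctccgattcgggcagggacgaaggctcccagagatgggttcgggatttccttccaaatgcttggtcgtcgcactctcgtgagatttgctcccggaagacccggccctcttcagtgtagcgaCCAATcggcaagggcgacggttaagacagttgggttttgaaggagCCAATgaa

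A few called genes belonged to neither group. Pmm1, a phosphomannomutase that feeds protein glycosylation, stood at 22.2, 20.7, 9.83 and 9.61 CPM (log2 difference 1.07). It stayed called under 16 of 19 alternatives, the most of any gene called higher, and among those lower Gm49359 stayed called under 17. Bmpr1a, a receptor for bone morphogenetic proteins, stood at 22.2, 18.0, 9.55 and 9.75 CPM, against 1.01 to 1.56 in macrophage-gated cells and a mean of 91.5 in fibroblast-gated cells. Irs2, an adaptor of the insulin receptor, stood at 24.1, 22.1, 11.8 and 14.0 CPM. Cspg4, the NG2 proteoglycan of pericytes, stood at 39.4, 36.8, 21.9 and 20.2 CPM, while the summed mural markers were low in A0312 alone. Tmem273, Tor1a, Zscan12, Ddx20 and Prelid2 were also called, with log2 differences of 0.66 to 0.74.

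Fatty acid handling, a main task of this endothelium, had no called gene among 23 considered, where 0.365% of all genes were called higher and 0.122% lower. The widest-separated members differed by less than 1.5 times, with many counts and close pairs. Angptl4, a secreted inhibitor of lipoprotein lipase, stood at 363, 361, 510 and 510 CPM (log2 difference -0.49, 1845 to 3579 counts). The fatty acid carrier Fabp5 stood at 1028, 1065, 1399 and 1459 CPM (-0.45). Lpl, the lipase itself, ran the other way at 1181, 1276, 893 and 994 CPM (0.38); its level in macrophage-gated cells was 9232 to 10314 CPM, and low values of Lpl had been set to 0 before deposit. Fabp4, a fatty acid carrier of fat capillaries, overlapped at 18586, 20109, 20026 and 22550 CPM, and Gpihbp1, which anchors the lipase to capillaries, at 1957, 1878, 1902 and 2401 CPM.

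None of the 16 genes of endothelial identity was called. With 0.365% of all genes called higher and 0.122% lower, a list of this size seldom holds a call, and a count of 0 is near the share over all genes. Of these 6 lay below, where 17.1% of all genes did, and none above, with a median log2 difference of -0.11. Clec14a, a lectin-like receptor of sprouting vessels, had the widest difference at 61.8, 60.1, 96.5 and 78.0 CPM (-0.50). None of the 11 capillary, 12 venous, 11 Notch pathway or 13 junction genes considered was called, and 1, 0, 0 and 3 of them lay below. In the VEGF and angiopoietin system 0 of 11 was called. Pgf, placental growth factor, stood at 40.5, 20.2, 53.2 and 52.8 CPM, but its 2 sums in A0309 and A0310 differed more than the gap between the pairs. Flt1, the decoy VEGF receptor, overlapped at 1061, 941, 1031 and 970 CPM. Of 7 lymphatic genes 1 was considered, and it overlapped.

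Of 12 leukocyte adhesion genes none was called, 4 lay above and 2 below, where 18.6% and 17.1% of all genes did. Icam1, the integrin ligand that holds leukocytes, stood at 140, 142, 109 and 110 CPM (log2 difference 0.36), and Cd44, the hyaluronan receptor, at 160, 120, 90.3 and 86.5 CPM (0.64). Vcam1 overlapped at 41.1, 37.2, 42.9 and 35.6 CPM. Macrophages signal to stromal cells through oncostatin M, and of the 11 genes of that cytokine family and its pathway 1 lay above and none below. The receptor Osmr stood at 154, 122, 132 and 110 CPM, its partner Il6st at 377, 460, 518 and 414 CPM and the feedback inhibitor Socs3 at 368, 418, 386 and 304.6 CPM. All 3 overlapped. Tgfb1, the fibrogenic cytokine, stood at 121, 135, 126 and 141 CPM. In the list of transforming growth factor and bone morphogenetic protein signalling, 1 of 22 lay above and 4 below, among them Smad5 at 91.9, 90.4, 124 and 118 CPM.

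No gene of antigen presentation was called. Of 13 genes of class I presentation 5 lay below, none above and 8 overlapped, where 17.1% of all genes lay below, and B2m, the shared light chain, stood at 2994, 3164, 3331 and 3659 CPM. In macrophage-gated cells all 12 class I genes considered lay below, where 24.0% of all genes did. Of 6 class II genes 3 lay above, where 18.6% of all genes did, and 3 overlapped, with a median log2 difference of 0.99. A0310 was the highest for each of the 6. Cd74, the invariant chain, stood at 376, 839, 206 and 389 CPM and was counted in 6.8% of the gated cells, against 4531.5 to 6206 CPM in macrophage-gated cells. Cells that also held leukocyte genes held 98.9, 99.0, 96.1 and 94.4% of the Cd74 counts, and the part of such cells was not tested. Cd74, H2-Aa, H2-Ab1 and H2-Eb1 are among 68 genes whose low values were 0 in the deposited table.

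The neighbours of Clec4e on chromosome 6 were looked at by position. Of 195 genes within 5 Mb, 66 were considered. Of these 19 lay above and 10 below, where 18.6% and 17.1% of all genes did, and 1 was called higher, where 0.365% were. That gene, Clec4b1, a lectin receptor of myeloid cells 0.21 Mb away, stood at 23.7, 24.3, 13.5 and 9.61 CPM, against 125 to 161 CPM in macrophage-gated cells, where the pairs overlapped. In A0309, a single cell held 46.5% of the Clec4b1 counts. Clec4a2 nearby was uncalled at 47.6, 60.5, 28.6 and 34.9 CPM. Both are leukocyte genes, and without cells holding leukocyte genes Clec4b1 pointed the other way, as given above.

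The remaining lists, of chemokines, NF-kB targets, mesenchymal transition, basement membrane, the Mincle pathway, immediate early genes, glycolysis, vascular tone, coagulation, antioxidant response, insulin signalling and mitochondrial transcripts, held 2 called genes, S100a4 and Irs2. Each list had 5 to 23 genes considered, and over all genes 0.365% were called higher and 0.122% lower. Above in both A0309 and A0310 lay 8 of 20 glycolysis and hypoxia genes and 7 of 12 antioxidant genes, where 18.6% of all genes did. Of 5 Mincle pathway genes considered 4 lay above, with a median log2 difference of 0.32. Clec4e, too low to be considered, is not among the 5. The widest difference of these, 0.57, was that of Fcer1g, at 100, 149, 93.5 and 72.4 CPM. Fcer1g is one of the leukocyte genes that marked cells above, and it stood at 1127, 1187, 1203 and 1197 CPM in macrophage-gated cells. The part of leukocyte-gene cells was not tested. Eno1, a glycolytic enolase, stood at 163, 149, 121 and 120 CPM, and the quinone reductase Nqo1 at 33.1, 39.5, 27.4 and 15.1 CPM. Nqo1 differed more within the pair A0311 and A0312 than the gap between the pairs. Of the 16 basement membrane genes 6 lay below and 1 above, where 17.1% and 18.6% of all genes did. Sparc, a collagen-binding matrix protein, stood at 8695, 8579, 10022 and 9543 CPM. The immediate early gene Fos was high in A0310 alone, at 3397, 4999, 3479 and 3328 CPM.

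**Figure D5:**
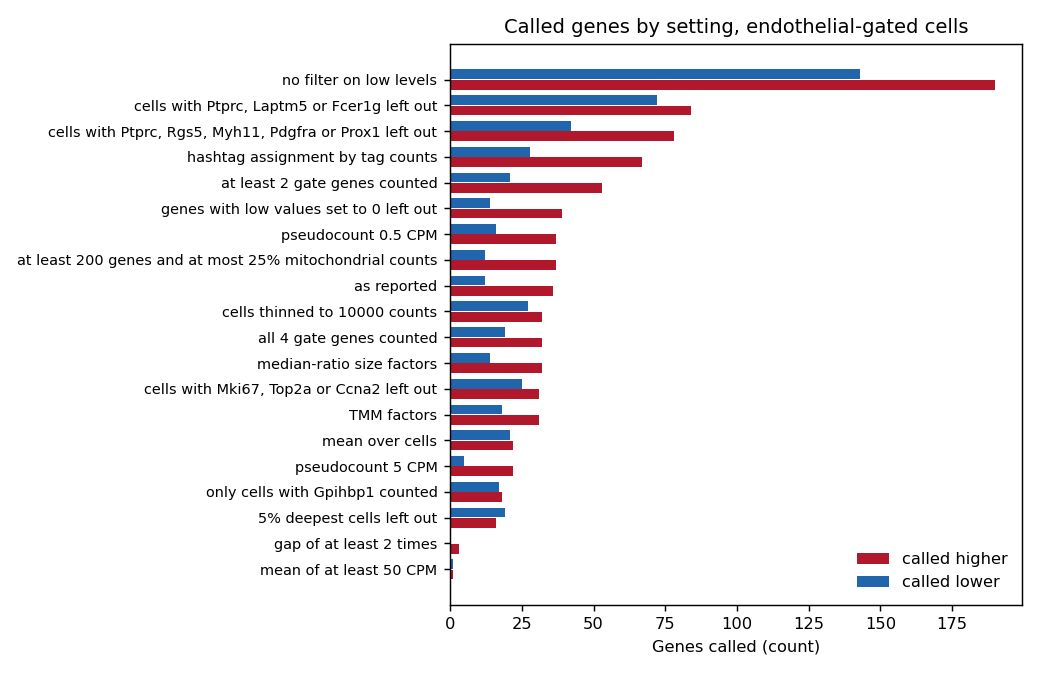
Bars give the number of genes called higher (red) and lower (blue) under each setting of cells, scaling or threshold, with the values as reported in the row so named; settings that leave out a hashtag are not drawn. The counts run from 1 and 1 at a mean of 50 CPM or more to 190 and 143 with no filter on low levels.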

How the data were processed

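Whole-number counts per gene and cell were taken from the deposited transcript table. The sources used here do not state if they count reads or molecules, and intervals cover counting error only. The submitters' processing notes name the GRCm38 build with R (3.6.3 and 4.1.2), Bowtie2 2.4.2 and cutadapt 3.4. Cells were assigned by the hashtag that the file headers put in their names. In the deposited counts 68 genes have no value below a minimum between 5 and 68, Dcn, Lum, Cd68 and C1qa among them.

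Gated cells were summed by hashtag and scaled to CPM of all counts (Python 3.11.15, numpy 2.4.6, pandas 2.3.3, scipy 1.17.1). Macrophage-gated cells (7635) had at least 20 counts per 10000 of Cd68, C1qa and C1qb, under 10 of Dcn and Lum and at most 1 gate gene; fibroblast-gated cells (3515) had the reverse limits. Log2 values carry a pseudocount of 1 CPM, which understates differences of low genes. The call rule was no test. It was checked on simulated counts that drew hashtag sums and not single cells, so the check does not show how often the rule errs here. Factors from edgeR 4.0.16 and DESeq2 1.42.0 served only as alternative scalings of the counts. Other alternatives changed the gate, cells, thresholds, depth and hashtag assignment, or left out a hashtag. Coordinates are from GENCODE vM21 and upstream sequences from RefSeq (GRCm38.p6).

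Members, pairs and lists were chosen with earlier results of these data known. Named are 10 fixed genes, the 10 called genes with the widest gap per direction outside lists of other cell types, and from each list up to 3 called and 2 uncalled members of highest CPM. Other called genes, the promoters and further list members were named after their values were seen. Some genes in these counts are not reported here by name.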

Additional observations from a re-analysis of the deposited data

Results flagged for a closer look

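Among 120 values tested over the 4 hashtags for a sample far from the others (gap to the nearest value over the whole range above Dixon's 95% critical value), 6 passed, and chance alone flags about 1 in 20. Kdr was high in A0312 at 973 CPM, against 877 to 891 in the other 3. Ctnnb1, beta-catenin, was high in A0312 at 555 CPM, against 476 to 484. The mitochondrial transcript mt-Co1 was low in A0312 at 6980 CPM, against 7247 to 7296. The summed mural markers were low in A0312 at 1749 CPM, against 2567 to 2677. Fos stood at 4999 CPM in A0310, against 3328 to 3479, and Nfkbiz, an inflammatory co-regulator of NF-kB, at 274 CPM in A0310, against 172 to 189. Each of the 6 set 1 hashtag apart from the other 3. The mural sums of A0309 and A0310 also lay above both others, but A0311 at 2567 CPM was close to A0309 at 2641 CPM. The remaining values overlapped between the pairs.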

How the results depend on the processing

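The counts of called genes, 36 higher and 12 lower, followed the cells and thresholds used. They were 190 and 143 with no filter on low levels, 1 and 1 at a mean of 50 CPM, 22 and 5 with a pseudocount of 5 CPM, and 3 and 0 at a gap of 2 times. Settings that changed the cells also changed the genes, so the calls shared with the 36 and 12 are given after each. They were 67 and 28 with hashtags assigned by tag counts (32 and 7 shared), 32 and 19 with all 4 gate genes (18 and 9), 53 and 21 with at least 2 (8 and 10), 18 and 17 with Gpihbp1 required (14 and 9), and 16 and 19 without the 5% deepest cells (4 and 10). Thinning to 10000 counts gave 32 and 27 (10 and 5) and a mean over cells 22 and 21 (8 and 6). Leaving out cells holding Ptprc, Rgs5, Myh11, Pdgfra or Prox1 gave 78 and 42 (6 and 3). As alternatives added after seeing the data, leaving out cells holding Ptprc, Laptm5 or Fcer1g gave 84 and 72 (2 and 3) and those holding Mki67, Top2a or Ccna2 31 and 25 (7 and 6). TMM factors gave 31 and 18 (31 and 12). Leaving out 1 hashtag gave 128 to 177 higher and 57 to 137 lower genes, since a lone sum has no spread within its pair.

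With cells holding Ptprc, Rgs5, Myh11, Pdgfra or Prox1 left out, log2 differences turned to -0.42 for F7, -0.12 for Mmp19, -0.54 for S100a4, -0.40 for Clec4b1, -0.21 for Alox5ap, -0.72 for Cd53, -0.54 for Cspg4 and -0.035 for Gm42674. Without cells holding Ptprc, Laptm5 or Fcer1g they were -0.26 for Dock2, -0.62 for Mmp19, -0.20 for S100a4, -1.02 for Clec4b1, -0.34 for Selplg and -0.018 for Ddx20. Without cells holding Mki67, Top2a or Ccna2 they were -0.35 for F7, -0.19 for Cdc20, -0.22 for Cdca8 and -0.30 for Racgap1. Apart from the loss of cells by construction, the cause was not tested.

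Interferon-induced genes below in both A0309 and A0310, 19 as reported, were 8 without cells holding Ptprc, Rgs5, Myh11, Pdgfra or Prox1, 7 without those holding Ptprc, Laptm5 or Fcer1g, 11 after thinning and 10 as a mean over cells. Cell cycle genes above, 8 as reported, were 4 with at least 2 gate genes, 4 without the deepest cells, 3 without leukocyte-gene cells and 2 without mitotic-gene cells. The last setting removes every count of Mki67, Top2a and Ccna2, so the loss of any of these genes from the list was fixed in advance. Endothelial shares were 7.94, 7.76 and 6.85% in A0309, A0311 and A0312 with all 4 gate genes, 11.7% in A0309 by tag counts, and 7.09, 5.75, 7.40 and 6.39% after thinning. No paired analysis was possible because no label numbers or pairs the hashtags.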

Other observations

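Genes called lower in macrophage-gated cells of A0309 and A0310 lay largely on the chromosome of Clec4e, a look taken after the values were seen. Of the 6, Apobec1, Mbd4, 2310001H17Rik and Mgst1 lie on chromosome 6, 0.679, 7.43, 5.92 and 14.9 Mb from Clec4e, and 386 of 8382 genes considered there do. Fam177a and Fam177a2 are the other 2. In endothelial-gated cells none of the 4 was called. Mgst1, a microsomal glutathione transferase, stood at 108, 167, 218 and 224 CPM in A0309, A0310, A0311 and A0312 (log2 difference -0.71). The gene 2310001H17Rik stood at 11.2, 10.4, 14.0 and 20.7 CPM (-0.61). Apobec1, an RNA-editing deaminase, stood at 34.2, 43.5, 53.7 and 43.6 CPM (-0.32), with little between the nearest hashtags, and at 294, 283, 708 and 681 CPM in macrophage-gated cells. The DNA glycosylase gene Mbd4 lies next to Ift122, from 115840697 to 115853371, where Ift122 starts at 115853470. In endothelial cells Mbd4 overlapped at 18.7, 4.70, 15.4 and 15.7 CPM. Of the 491 genes considered on chromosome 6 in endothelial cells, 2 were called higher and 1 lower. Over all genes considered the shares were 0.365% and 0.122%.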
